A study of Homo sapiens with 9 samples.

Results

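The 5992 genes described here are those whose 3 values in cells harvested with SB431542, a small-molecule inhibitor, lay all above or all below the values of 6 cultures harvested without it. They were chosen from 13216 genes that passed a filter on low values, out of 25593 loci measured in each of 9 libraries. The RNA came from 9 cultures of neural crest cells that had been made from human embryonic stem cells of the established H9 line. All 9 cultures had the inhibitor during differentiation, when clumps were kept for 6 days in chemically defined medium with 10 µM SB431542. Sorting then took the CD271-high, CD73-negative fraction, per the growth protocol, which was grown on fibronectin in 5% oxygen. The cell type label gives CD73 as positive instead. Group F (3 cultures) was expanded with the growth factor FGF2 at 5 to 10 ng/ml and no inhibitor. Group FSB (3 cultures) had FGF2 together with 3 to 5 µM SB431542. In group F_FSB (3 cultures), cells that had spent 4 passages in FSB medium spent 3 more in F medium. Cells were harvested at passage 6 or 7, and per the series' design text each group has 3 biological replicates, all from 1 cell line. The rule used the FPKM values (fragments scaled to transcript length and to the mapped fragments of the library) that the authors deposited, as log2(FPKM + 1). A gene passed the filter with 1 FPKM or more in at least 3 libraries and an accepted quantification status in all 9. Since this contrast chose the genes, its values are a description and carry no test.

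SB431542 blocks the kinases of the type I receptors ALK5, ALK4 and ALK7, the products of TGFBR1, ACVR1B and ACVR1C, through which TGF-β, activin and Nodal ligands signal. A ligand brings a type II and a type I receptor together, the type I receptor phosphorylates SMAD2 and SMAD3, and these enter the nucleus with SMAD4 to switch genes on or off. TGF-β is secreted in a latent form held in the matrix by latent TGF-β binding proteins, and it is a strong inducer of collagen and other matrix genes in mesenchymal cells. BMP ligands use other type I receptors and SMADs. Neural crest cells give rise to neurons, glia and pigment cells and, in the head, to the ectomesenchyme that forms bone and cartilage.

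The libraries of a group were closer to each other than to those of another group where FSB was involved. The median absolute difference per gene was 0.10 to 0.16 on the log2 scale between FSB libraries and 0.33 to 0.41 between an FSB library and any of the 6 others. FSB replicates 1 and 2 were the closest pair, and FSB replicate 3 lay 0.16 from each of them. F replicate 1 was closer to F_FSB replicate 1 (0.13) than to the other two F libraries (0.18 and 0.16). Fragment counts are not in the tables, so depth is unknown. The median half-width of the 95% interval that Cufflinks gave a gene was 7.20% to 8.14% of its FPKM in 8 libraries and 9.34% in F_FSB replicate 2. Of the crest markers, NGFR, which encodes CD271, measured 134, 123 and 104 FPKM in FSB and 0.725 to 41.3 in the others. SOX10, a defining crest factor, was at 0.0993, 0.0518 and 1.69 FPKM in FSB and no higher than 0.0360 elsewhere, and FOXD3 was at or under 0.0250 in all 9. NT5E, which encodes CD73, was expressed in every library, at 24.3, 26.5 and 9.26 FPKM in FSB and 46.2 to 99.1 in the others. In bulk RNA, fewer cells of a type and less RNA per cell cannot be told apart.

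FSB lay above the 6 others for 4042 genes (30.6% of those tested) and below them for 1950 (14.8%), together 45.3%. The share above depended on how libraries were scaled to each other. With the deposited values 67.5% of the members were above and the median of all tested genes was 0.13 higher in FSB on the log2 scale. Scaling by median ratios gave 2729 above and 2828 below (49.1% above), and quantile normalization gave 3012 and 2610 (53.6%). Of the above members 324 had 1 FPKM or more in fewer than 3 of the 6 other libraries, so that only FSB carried them through the filter, and 385 of the below members were under 1 FPKM in all 3 FSB libraries. With the filter kept, a comparison of fewer libraries can only add members, so a higher count there is given by the rule. FSB separated from the F libraries alone for 7654 genes and from the F_FSB libraries alone for 7378. Without FSB replicate 3, the FSB library that stood apart, 4544 genes were above and 2584 below, and without F_FSB replicate 2, the library with the widest intervals, 4506 and 2092.

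Most members were far from on or off. The median difference was 0.57 above and -0.74 below, and 41.5% of the above and 30.4% of the below members differed by less than 0.5. The low side stood at 5 FPKM or more in all its libraries for 58.9% of the above and 45.8% of the below members. The gap, the log2 distance between the nearest libraries of the 2 sides, was 1 or more for 258 genes above and 232 below, and 3 or more for 20 and 15. At the border, ARHGAP12, MCM9 and WDYHV1 were just inside above, with the narrowest gaps (MCM9 at 4.11, 3.49 and 5.16 FPKM in FSB against 2.20 to 3.49), and CRTC3, PTRF and SLC25A32 just inside below (CRTC3 at 8.78, 8.45 and 8.73 against 8.78 to 10.8). DCLRE1C, MAP3K1 and NEURL4 were just outside above and ASXL3, DNAJB1 and MINA just outside below (DCLRE1C at 4.44, 3.96 and 4.52 against 2.68 to 3.96, DNAJB1 at 35.3, 42.1 and 36.8 against 42.1 to 49.5). FSB replicate 3 was the FSB library nearest the others for 43.6% of the above members, as the lowest, and 48.2% of the below members, as the highest. Over all tested genes it was the lowest FSB library for 33.7% and the highest for 44.5%, so the share below is near that of all genes.

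**Figure D1:**
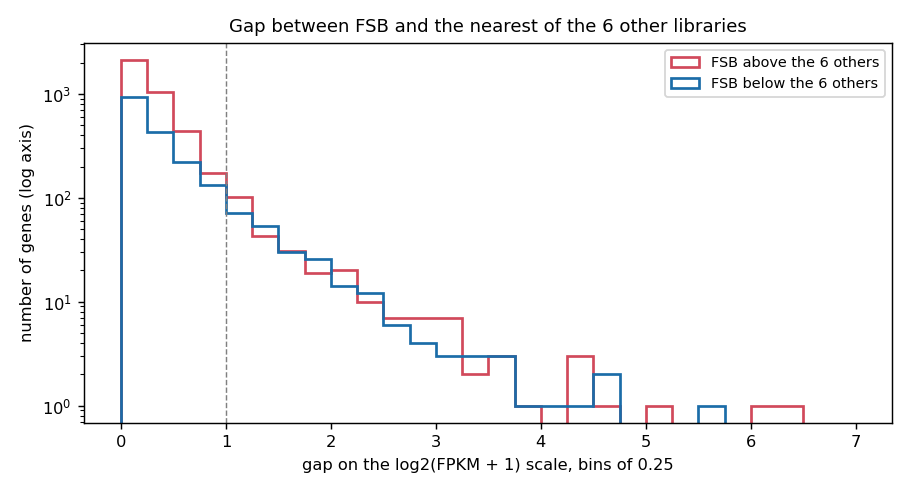
Number of genes (log axis) by gap between FSB and the nearest of the 6 other libraries, in bins of 0.25 on the log2(FPKM + 1) scale, for genes with FSB above (red) and below (blue). The dashed line marks a gap of 1, which 258 genes above and 232 below reached; the tails reach a gap of 6.48 above and 5.68 below.

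Only 0.567% of the members went from near silence on 1 side to clear expression on the other. With at least 5 FPKM in every library of the high side and under 0.5 in every library of the low side, 20 genes (0.151% of those tested) were on with the inhibitor and 14 (0.106%) were off. CYP1A1 (chromosome 15, 75011883 to 75017877, GRCh37), a cytochrome P450 that oxidizes aromatic compounds, had the widest gap above, 6.48. It measured 137, 161 and 124 FPKM in FSB, 0.0677, 0.0995 and 0.0955 in F and 0.346, 0.404 and 0.0758 in F_FSB. The FSB mean of 141 ± 18.6 (SD, n = 3) was 775 times the mean of 0.181 ± 0.151 (SD, n = 6) of the others. LIN28A (chromosome 1, 26737269 to 26756219), which binds let-7 precursors and prevents their maturation, followed with 78.9, 74.3 and 85.4 FPKM in FSB and 0 to 0.0529 in the 6 others. TAC1, the precursor of the neuropeptide substance P, measured 94.1, 117 and 36.5 FPKM in FSB, 0.0578, 0.103 and 0.140 in F and was listed at 0 in all 3 F_FSB libraries. All 3 genes were near 0 in every culture without the inhibitor at harvest, whether it had been left out of expansion throughout or for the last 3 passages.

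Several of the on genes encode signalling or developmental proteins. ZBTB16, a zinc-finger repressor, was listed at 0 FPKM in all 6 other libraries and measured 13.4, 11.1 and 10.8 in FSB. TRIM71, a let-7 target and ubiquitin ligase of early embryos, measured 24.2, 20.6 and 25 against 0 to 0.496. The BMP ligand gene BMP7 measured 6.17, 5.39 and 6.74 against 0 to 0.296, and NPPB, which encodes a natriuretic peptide, 9.97, 10.3 and 8.69 against 0 to 0.0921. FGFR2, a receptor for fibroblast growth factors, had 5.53, 5.11 and 6.18 FPKM and DUSP9, a phosphatase of ERK kinases, 7.03, 6.64 and 5.58, against no more than 0.309 and 0.382 elsewhere. MASP1, a complement protease, and ITGB2, the β2 integrin chain, varied within FSB. MASP1 measured 28.4, 29.6 and 65.1 FPKM and ITGB2 8.37, 8.94 and 30.6, with FSB replicate 3 the highest of both. The other on genes that can be named are ADAP2, CECR2, FRMD3, REEP1, SLC22A3, SLC8A3 and YPLR6490, at 5.27 to 12.6 FPKM in FSB. YPLR6490, a locus just before TRIM71 on chromosome 3, spans 32857841 to 32858858, and 1 microRNA and 1 small nucleolar RNA gene are not named because FPKM of very short genes is unreliable.

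Among members that were not off in the 6 others, ABCG2, an efflux transporter, measured 30.9, 31.4 and 41.7 FPKM in FSB and 0.181 to 0.601 in the others, which put it 92.4 times higher. IGDCC3, an immunoglobulin-family surface protein and let-7 target, measured 69.8, 60.8 and 91.9 against 0.364 to 3.87, with F_FSB replicate 3 the highest of the 6. LAMA1, the laminin α1 chain of embryonic basement membranes, measured 21.7, 19.0 and 38.5 against 0.0626 to 0.676. LMOD1, an actin nucleator of smooth muscle, measured 30.4, 30.1 and 73.9 against 0.354 to 1.82, and SPSB4 25.1, 27.2 and 41.9 against 0.108 to 1.41. FSB replicate 3 was the highest for all 5 of these genes.

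**Figure D2:**
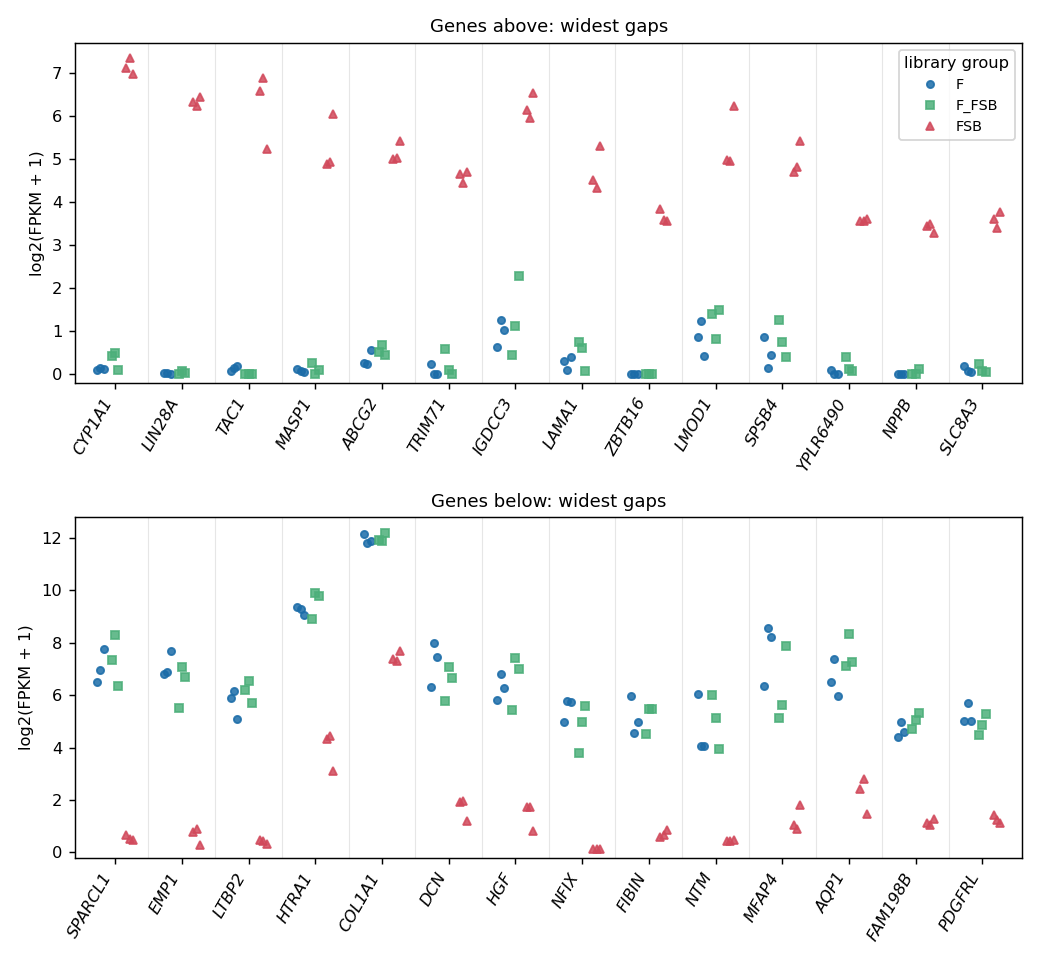
The 14 named genes with the widest gap above (top) and below (bottom), each library as log2(FPKM + 1); circles are F, squares F_FSB and triangles FSB. FSB values stand clear of the other 6 in every column, while F and F_FSB values overlap for every gene in the lower panel.

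The genes off with the inhibitor were mostly secreted or surface proteins of connective tissue cells. LTBP2 (chromosome 14, 74964886 to 75079034), a matrix protein of the latent TGF-β binding protein family, measured 0.395, 0.335 and 0.257 FPKM in FSB, 58.3, 69.6 and 32.6 in F and 71.6, 93.1 and 51.5 in F_FSB. The transcription factor NFIX (chromosome 19, 13106584 to 13209610) measured 0.102, 0.102 and 0.0869 in FSB and 12.9 to 53.4 in the others, and its mean was 389 times higher without the inhibitor. IFI44, an interferon-induced gene, was listed at 0 in all 3 FSB libraries and measured 5.22 to 12 FPKM in the others. FAP, the fibroblast activation protease, measured 0.0854, 0 and 0.0362 against 7.17 to 24.7. CPT1A, which admits fatty acids to mitochondria, measured 0.244, 0.377 and 0.384 against 6.24 to 14.2, and PTGER4, a prostaglandin E2 receptor, 0.0959, 0.143 and 0.400 against 7.31 to 16.8. The groups did not overlap for any of these, and the values of F and F_FSB interleaved.

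Within the 6 libraries the off genes were uneven. MGP, an inhibitor of calcification, measured 5.77, 24.8 and 325 FPKM in F and 9.04, 188 and 11.6 in F_FSB, against 0.0368, 0 and 0.0391 in FSB. SCG2, a secretory granule protein, measured 39.0, 6.38 and 17.3 and 85.2, 121 and 11.8. ISLR, a secreted leucine-rich repeat protein, and COL21A1, a collagen, ranged from 5.97 to 139.9 and 5.52 to 66.5 FPKM. TMEFF2, NTM and PLSCR4 are the other off genes named here. For MGP the highest of the 6 stood far from the lowest, so that the level without the inhibitor is known only as a range, while all 3 FSB values stayed near 0.

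SPARCL1 (chromosome 4, 88394487 to 88450655), a secreted matricellular protein, had the widest gap below, 5.68. It measured 0.603, 0.424 and 0.380 FPKM in FSB, 90.6, 124 and 217 in F and 160.4, 310.0 and 80.9 in F_FSB, and its mean was 349 times higher without the inhibitor. EMP1, a membrane protein, measured 0.711, 0.847 and 0.215 against 45.1 to 206. HTRA1 (chromosome 10, 124221041 to 124274424), a secreted protease, kept a measurable level in FSB, with 19.3, 20.8 and 7.67 FPKM against 485 to 962. The growth factor gene HGF measured 2.34, 2.30 and 0.745 against 42.0 to 172 and FIBIN 0.486, 0.605 and 0.816 against 21.7 to 62.4. AQP1, a water channel, measured 4.30, 5.92 and 1.76 against 61.9 to 324. FAM198B and PDGFRL measured 1.09 to 1.39 and 1.18 to 1.68 FPKM in FSB against 20.4 to 39.0 and 21.4 to 51.4. For SPARCL1, EMP1, HTRA1, HGF and AQP1 the lowest value was that of FSB replicate 3.

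The genes of the blocked pathway itself lay on both sides, and its extracellular regulators on 1. Of 6 ligand genes tested, 1 was above, 2 were below and 3 overlapped, where 30.6% of all genes were above and 14.8% below. INHBA (chromosome 7, 41728601 to 41742706), the activin A subunit, measured 0.736, 0.791 and 0.616 FPKM in FSB, 39.5, 13.3 and 28.2 in F and 37.0, 33.8 and 15.6 in F_FSB, 39.1 times lower in the mean with the inhibitor. TGFB3, a TGF-β isoform, measured 1.65, 2.02 and 3.21 against 6.59 to 23.1, with F_FSB replicate 3 the lowest of the 6. GDF11, an activin-like ligand, was above with a gap of 0.10 (18.8, 16.2 and 29.3 against 10.4 to 15) and was not a member after scaling by median ratios or quantiles. TGFB1 (41.8, 49.6 and 46.8 against 17.9 to 65.2) and TGFB2 (33.4, 37.1 and 22.6 against 4.05 to 129) overlapped, as did GDF15. The last is counted as a relative of these ligands, and signalling through the blocked receptors is not implied for it.

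Of 7 receptor genes, 2 were above, 2 below and 3 overlapped, where 30.6% of all tested genes were above and 14.8% below. The type II activin receptor ACVR2B (chromosome 3, 38495790 to 38534633) measured 11.2, 9.35 and 10.4 FPKM in FSB and 1.20 to 2.01 in the others, 6.42 times higher. The type II TGF-β receptor TGFBR2 (chromosome 3, 30647994 to 30735634) measured 14.3, 14 and 20.4 against 32.7 to 74.8, 3.12 times lower. ENG, a co-receptor, measured 81.8, 89.3 and 31.0 against 170.0 to 276, with FSB replicate 3 the lowest. Of the kinases that the inhibitor binds, TGFBR1 measured 24.6, 25.5 and 24.8 FPKM in FSB, 25.8, 12.8 and 11.5 in F and 21.1, 19.9 and 12.1 in F_FSB. F replicate 1 lay above all 3 FSB libraries, and the groups overlapped. ACVR1B was above with a gap of 0.06 (8.28, 8.21 and 9.55 against 5.05 to 7.85), which it lost with each of 3 other scalings, and ACVR1C was too low to be tested.

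SMAD2, SMAD3 and SMAD4, the mediators, were above by small margins. SMAD4 measured 11.5, 12.4 and 11.3 FPKM in FSB and 8.05 to 9.53 in the others, SMAD3 27.6, 26.5 and 21.4 against 10.0 to 20.7 and SMAD2 10.3, 10.2 and 9.70 against 7.05 to 8.72. With median-ratio scaling 1 of the 3 remained above. Inhibitors inside the cell, 11 tested, had 2 above and 3 below, where 30.6% of all tested genes were above and 14.8% below. PMEPA1, a TGF-β-induced brake on SMAD signalling, measured 0.439, 0.393 and 0.214 against 3.08 to 10.5, and the SMAD corepressors SKIL and SKI 5.09, 5.06 and 4.25 against 11.8 to 30.5 and 23.4, 21.1 and 20.4 against 39.7 to 48.2. The corepressor TGIF2 measured 23.8, 22.8 and 24.8 against 8.50 to 14.6 and FKBP1A, which holds the type I receptor inactive, 178, 191 and 170.4 against 139 to 157. SMAD7, the feedback inhibitor, overlapped by a small margin (5.74, 6.19 and 6.34 against 5.65 to 13.9) and, like the corepressor TGIF1, was below after scaling by median ratios or quantiles.

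The list of extracellular regulators holds proteins that store or trap ligands, and relatives for which such a role is not implied here. It was below in 10 of 13 tested and above in 0, with a median difference of -2.37 where all tested genes had 0.13. Of all tested genes, 14.8% were below and 30.6% above. All 4 genes of the LTBP family, LTBP2 included, were among the 10. LTBP1 measured 16.5, 16.2 and 8.64 FPKM in FSB against 54.9 to 147, LTBP3 4.75, 3.73 and 5.98 against 33.9 to 63.3 and LTBP4 4.64, 4.21 and 3.30 against 19.9 to 35.2. FST, which binds and neutralizes activin, measured 0.135, 0.0844 and 0.0859 against 1.48 to 17.5, and the BMP antagonist GREM1 4.25, 4.36 and 21.0 against 25.5 to 109. FSB replicate 3 was the high one for GREM1. FSTL1 was below by a gap of 0.03 only, and FSTL3, THBS1 and LRRC32 overlapped. None of the 13 was above under any of the 3 scalings.

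**Figure D3:**
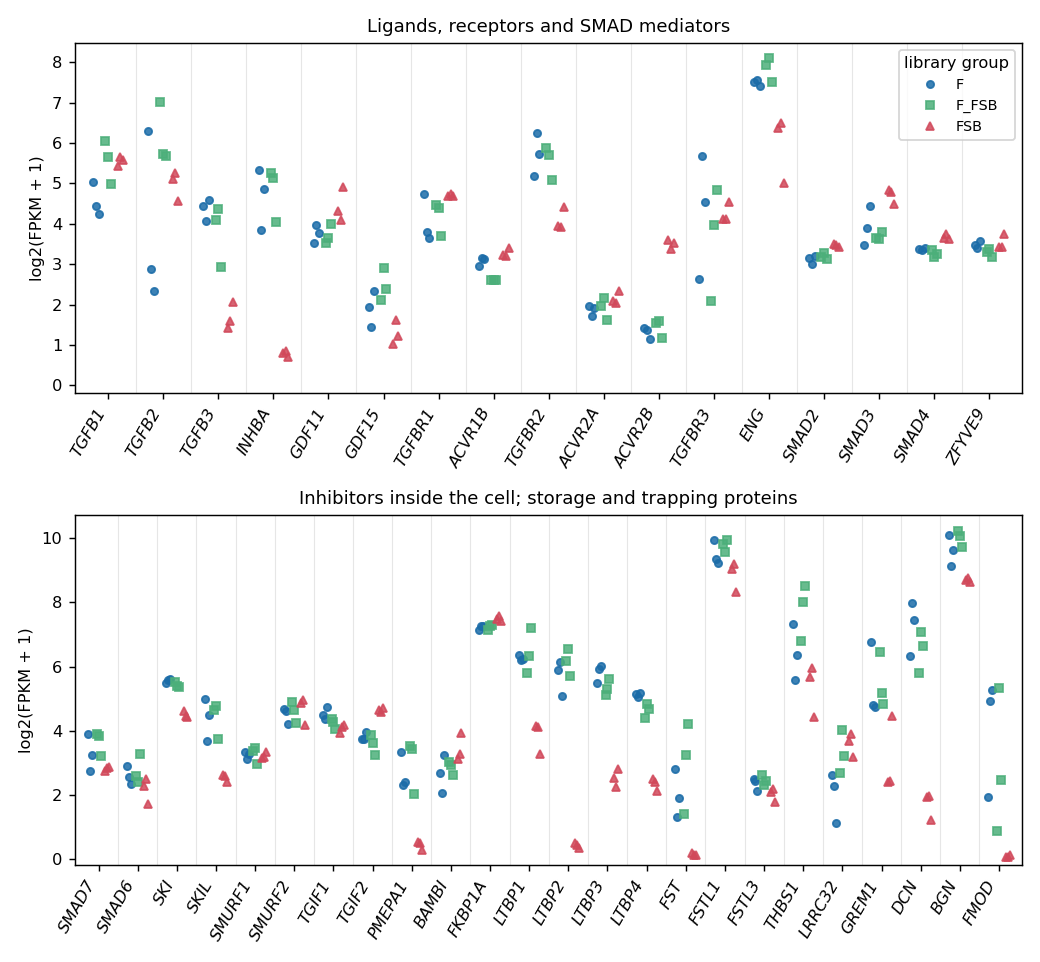
Pathway genes that passed the filter, each library as log2(FPKM + 1): ligands, receptors and SMAD mediators (top), inhibitors and storage or trapping proteins (bottom); circles are F, squares F_FSB and triangles FSB. FSB triangles are lowest for INHBA, PMEPA1, the 4 LTBP genes, FST and DCN and highest for ACVR2B, and they overlap the other symbols for TGFB1, TGFB2 and TGFBR1.

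Of 25 textbook targets of TGF-β, 11 were below, 4 above and 10 overlapped (median -1.02), where 14.8% of all tested genes were below and 30.6% above. TGFBI measured 74.4, 74.8 and 62.5 FPKM in FSB against 306 to 1639.8, with F_FSB replicate 3 the highest. KLF10, an early response transcription factor, measured 2.66, 2.96 and 2.89 against 12.4 to 19.7 and JUNB, an AP-1 subunit, 2.87, 3.27 and 3.88 against 14.3 to 21.1. The 4 above were SPHK1, a sphingosine kinase (34.1, 30.4 and 32.1 against 2.70 to 5.31), TAGLN, an actin-binding protein (747, 927 and 478 against 143 to 246), SNAI1, a transcription factor (15.8, 12.5 and 10.9 against 1.79 to 9.50), and LMCD1, a cofactor (16.0, 15.6 and 16.1 against 6.38 to 13.3). SNAI1 was not above after scaling by median ratios or quantiles. CTGF (165, 209 and 162 against 40.8 to 308), a standard target that was singled out after its values were seen, overlapped the others.

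In the parallel BMP branch, 3 of 17 genes were above and 4 below (median 0.00), where 30.6% of all tested genes were above and 14.8% below. Besides BMP7, the targets ID3 (126, 142 and 121 FPKM against 57.8 to 77.4) and ID1 (119, 130.5 and 86.5 against 23.8 to 79.8) were above, ID1 not after scaling by median ratios or quantiles. The ligands BMP4 (7.36, 9.24 and 5.46 against 11.0 to 32.0) and GDF6 (0.604, 0.525 and 0.614 against 1.85 to 28.0) and the receptors BMPR2 (13.3, 12.9 and 12.1 against 22.4 to 32.1) and ACVR1 (8.23, 8.53 and 7.25 against 16.6 to 20.0) were below.

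Genes of connective tissue matrix lay largely below, where 14.8% of all tested genes were below and 30.6% above. Of 29 fibrillar matrix genes 19 were below and 0 above (median -1.61), of 11 small leucine-rich proteoglycans 9 and 0 (median -1.97), and of 15 matricellular and joint proteins 12 and 0 (median -2.48). COL1A1 (chromosome 17, 48261457 to 48279000), the α1 chain of type I collagen, measured 166, 156 and 207 FPKM in FSB, 4511, 3550.0 and 3763 in F and 3835, 3825 and 4645 in F_FSB. Its mean was 22.8 times lower with the inhibitor, and the 6 other values lay close together. DCN, decorin, a proteoglycan that binds TGF-β, measured 2.84, 2.93 and 1.32 against 54.2 to 253, and ELN, elastin, 2.24, 2.23 and 0.583 against 11.9 to 48.8. THBS2, a thrombospondin, measured 8.44, 8.11 and 1.39 against 53.8 to 261, with FSB replicate 3 far under the other two. POSTN, periostin, ranged from 61.9 to 1599 FPKM in the 6 others against 5.57 to 17.8 in FSB. COL3A1, the type III collagen chain, overlapped (1033, 1072 and 1722 against 1077 to 1462). No matrix gene of these 3 lists was above under any of the 3 scalings.

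Basement membrane genes lay on both sides, with 5 of 17 above and 4 below, where 30.6% and 14.8% of all tested genes were (median -0.02), the same counts under each scaling. Above were LAMA1, the linker proteins NID1 (204, 187 and 258 FPKM against 73.5 to 137) and NID2 (83.0, 75.9 and 141 against 16.1 to 36.3), and the collagens COL4A6 (3.56, 3.55 and 4.66 against 0.648 to 2.51) and COL18A1 (159.5, 161 and 103 against 40.2 to 83.1). Below were the laminin chains LAMA2 (0.0835, 0.126 and 0.103 against 2.19 to 7.96), LAMA4, LAMA5 and LAMB1. Among the laminin α chains, the embryonic LAMA1 was thus above and LAMA2, LAMA4 and LAMA5 below.

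CYP1A1 is the standard target of the aryl hydrocarbon receptor, a ligand-activated transcription factor whose core element is GCGTG. Its promoter is shown because it is the gene with the widest gap. In the RefSeq table (GRCh38.p14), the 250 bases before its start (chr15:74725529-74725778, minus strand) held 1 match to GCGTG on either strand, in capitals. That motif occurs in 36.3% of all promoters of 300 bases in the table, so that a match alone does not set this promoter apart.
CYP1A1: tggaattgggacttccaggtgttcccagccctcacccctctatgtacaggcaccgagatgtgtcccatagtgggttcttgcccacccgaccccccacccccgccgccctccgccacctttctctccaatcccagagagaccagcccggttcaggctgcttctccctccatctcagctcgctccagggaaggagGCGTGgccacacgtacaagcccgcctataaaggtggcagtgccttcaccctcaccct
Of 8 tested genes of the receptor's list 3 were above and 2 below, where 30.6% of all tested genes were above and 14.8% below. NQO1, a quinone reductase that is also a target of NRF2, measured 735, 858 and 785 FPKM in FSB, 86.6, 58.8 and 54.6 in F and 179, 202 and 138 in F_FSB. The 3 F_FSB values were all above the 3 F values, and that difference was 1.38 on the log2 scale (SE 0.20, limma, Benjamini-Hochberg adjusted p = 0.191, and 0.0246 without F replicate 1). CYP1B1, the paralog of CYP1A1, was below (8.59, 8.47 and 9.30 against 21.9 to 75.3). AHR (32.4, 41.2 and 33.9 against 8.40 to 44.6), AHRR (5.15, 5.16 and 7.18 against 3.36 to 10.3) and TIPARP (8.15, 8.71 and 12.5 against 3.69 to 27.3) overlapped, and ARNT, the receptor's partner, was below by 0.02 only.

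LIN28 proteins and targets of the let-7 microRNAs that they hold down were largely above, 11 of 16 tested with 1 below (median 1.60). Under each scaling 11 to 13 were above. With the deposited values 30.6% of all tested genes were above and 14.8% below. LIN28B, the paralog of LIN28A, measured 62.4, 67.7 and 51.4 FPKM in FSB, 4.30, 0.524 and 0.286 in F and 8.67, 5.06 and 2.31 in F_FSB. ARID3B, a DNA-binding protein, measured 20.7, 22.3 and 15.1 against 0.955 to 1.66, the mRNA-binding protein IGF2BP1 71.9, 66.9 and 56.0 against 16.3 to 25.6 and CDC25A, a cell cycle phosphatase, 17.7, 17.9 and 14.9 against 2.99 to 7.03. HMGA2, a chromatin protein and let-7 target, was the exception below (127, 114 and 98.9 against 161 to 283). Of 7 pluripotent cell markers 4 were above and 0 below (3 after scaling by median ratios or quantiles). SALL4, a stem cell transcription factor, measured 16.2, 15 and 17.0 against 0.0683 to 2.84, with F_FSB replicate 3 the highest of the 6, and DNMT3B, a DNA methyltransferase, 7.60, 6.91 and 5.70 against 1.65 to 3.89. The core factors POU5F1, NANOG and SOX2 did not pass the filter, with at most 1.15, 0.247 and 0.505 FPKM in any library.

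Crest factors were above in 5 of 11 tested and below in 0 (median 1.78), the same counts under each scaling. TFAP2A measured 64.4, 62.4 and 55.3 FPKM against 9.64 to 29.7, ETS1 47.6, 48.9 and 71.9 against 10.2 to 18.4, TFAP2C 6.61, 6.37 and 3.79 against 0 to 0.722 and SOX8 10.7, 9.75 and 5.30 against 0.202 to 1.36. SOX9 overlapped (43.7, 36.5 and 22.2 against 10.6 to 58.3). Ectomesenchyme factors had 4 above and 5 below of 19, where 30.6% of all tested genes were above and 14.8% below. Among them TWIST1 (99.5, 96.2 and 92.2 against 20.9 to 39.8) and ALX1 (7.47, 7.45 and 17.3 against 1.23 to 4.62) were above and DLX1 (17.8, 16.1 and 5.50 against 25.4 to 72.0) was below. ALX4 was uneven within FSB (19.3, 16.8 and 2.15 against 0.0142 to 1.90). All 4 nuclear factor I genes were below, NFIX as given, NFIB 1.24, 0.996 and 1.53 against 7.48 to 23.8, NFIC 2.74, 2.62 and 2.45 against 13.2 to 26.8 and NFIA 1.17, 0.828 and 1.16 against 4.25 to 18.1, also under each scaling. Of 39 HOX genes 3 passed the filter and none was a member. In HOXA3 the F libraries stood at 6.57, 26.7 and 6.34 FPKM, the F_FSB libraries at 1.70, 0.0978 and 0.776 and FSB at 0.519, 0.210 and 0.

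Markers of other cell types were followed as sums. Their counts above or below are to be read against 30.6% above and 14.8% below over all tested genes. Pluripotent cell markers summed to 113 to 137 in FSB, 7.43 to 16.9 in F and 6.92 to 13.3 in F_FSB (FPKM), and LIN28A made up most of the sum in FSB. Crest factors summed to 358 to 404 in FSB, 188 to 251 in F and 140.4 to 153 in F_FSB. Stromal surface markers, which include NGFR, summed to 929.8 to 1165 in FSB, 1134 to 1294 in F and 1166 to 1599 in F_FSB, with 7 of 14 below and 2 above. Below were VCAM1 (5.28, 4.60 and 4.13 against 14.6 to 72.0), CD44 (8.58, 8.66 and 0.490 against 32.3 to 73.2), ANPEP (5.30, 4.83 and 7.02 against 32.2 to 119), CSPG4, NT5E, ENG and ALCAM, and above were NGFR and MCAM (144, 178 and 122 against 13.8 to 67.0). Endothelial markers, 5 tested of 10, summed to 8.20 to 15 in FSB, 8.21 to 14.9 in F and 4.83 to 10.6 in F_FSB with 2 above (CDH5 and TIE1) and 2 below (TEK and EMCN). Epithelial markers, 4 tested of 10, had 1 above (CLDN6) and summed to 109 to 215 in FSB, 37.4 to 128 in F and 83.4 to 193 in F_FSB. Glial and melanocyte markers, 5 tested of 11, had 2 above (KIT and PMEL) and summed to 25.9 to 28.5 in FSB, 6.34 to 21.2 in F and 3.50 to 19.9 in F_FSB. None of 4 tested neuron markers was a member with the deposited values (sums of 94.7 to 139 in FSB, 58.4 to 107 in F and 111 to 152 in F_FSB), nor either of 2 osteogenic markers. ELAVL4, a defining neuron gene, and DCT, of melanocytes, were listed at 0 in all 9 libraries, and CDH1, of epithelium, was at or under 0.0353. Of 8 blood markers 2 were tested and CD34 was below, with PTPRC at or under 0.0671 FPKM in every library. No endoderm marker passed the filter. The part of changed cell proportions in the genes above or below was not tested.

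Chondrogenic genes had 3 above and 3 below of 11, where 30.6% of all tested genes were above and 14.8% below. COL2A1, the cartilage collagen, measured 55.6, 48.3 and 47.0 FPKM against 0.360 to 4.93, FGFR3 1.51, 1.52 and 1.74 against 0.164 to 0.518 and LECT1 1.10, 1.70 and 1.16 against 0 to 1.07, while MATN3 (1.11, 1.52 and 0.804 against 2.33 to 6.79), COL9A2 and COL9A3 were below. LECT1 was not a member after scaling by median ratios. Contractile genes had 8 above and 1 below of 18. CNN1, calponin, measured 31.0, 39.95 and 27.2 against 3.62 to 8.94 and CSRP1 130.4, 154 and 121 against 37.4 to 58.7, while SYNPO2, an actin bundling protein, was below (0.0816, 0.124 and 0.217 against 0.885 to 2.29). Smooth muscle and pericyte markers, 6 tested, summed to 227 to 287 in FSB, 176 to 210.1 in F and 157 to 297 in F_FSB, with NOTCH3 above and CSPG4 below. NOTCH3 was not a member under any of the 3 other scalings.

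Nearly all DNA replication genes were above, where 30.6% of all tested genes were above and 14.8% below. Of 35 tested 34 were above, 0 below and 1, the thymidine kinase TK1, overlapped, with a median of 1.21 against 0.13 for all genes. Of 30 mitosis genes 26 were above and 0 below (median 0.93), and 21 to 24 under the 3 other scalings, where 33 or 34 replication genes were above. MCM7, a helicase subunit, measured 110.2, 107 and 92.9 FPKM in FSB, 31.5, 28.2 and 46.8 in F and 35.6, 32.1 and 24.8 in F_FSB, 3.12 times higher. PRIM1, a primase subunit, measured 12.3, 13.3 and 12.3 against 1.99 to 5.03, ORC6, of the origin recognition complex, 26.9, 29.8 and 30.8 against 6.20 to 14.4 and POLD1, a polymerase subunit, 20.6, 20.2 and 17.5 against 4.70 to 9.53. The mitotic kinases AURKB (58.7, 60.3 and 35.3 against 16.5 to 20.0) and BUB1 (33.3, 34.6 and 20.4 against 8.44 to 14.1) had FSB replicate 3 as the lowest FSB library. These were differences of degree, in genes that all 9 libraries expressed.

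Of 15 cell cycle brakes and cyclins 5 were above and 5 below, where 30.6% of all tested genes were above and 14.8% below. CDKN2A (chromosome 9, 21967751 to 21994490), which encodes the inhibitor p16 and the protein ARF, measured 0.0697, 0 and 0 FPKM in FSB, 5.82, 1.55 and 3.16 in F and 2.29, 5.78 and 7.23 in F_FSB. CDKN2C, which encodes p18, measured 2.24, 2.28 and 2.40 against 6.65 to 10.9, and CDKN1A, which encodes p21, 41.8, 51.0 and 24.7 against 62.1 to 141, with F_FSB replicates 2 and 3 the highest. CCND2, a G1 cyclin and let-7 target, measured 66.3, 58.5 and 67.5 against 1.79 to 18.7 and CDK6, its kinase partner, 37.4, 35.0 and 28.7 against 16.1 to 22.8. CDKN2B, the inhibitor best known as a TGF-β target, overlapped, as did CCND1 (151, 146 and 79.5 against 76.9 to 278).

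Promoters of replication genes are shown for the motifs of the factors that are known to drive them. Among 31 replication genes with a promoter in the RefSeq table, 10 (32.3%) held the E2F element GGCGGGAA in 300 bases around the start on either strand, where 3.18% of all 27305 promoters did, and 19 (61.3%) held CCAAT, where 35.7% of all did. All 10 and all 19 were above members, and TK1 held neither. Of 26 mitosis promoters 20 (76.9%) held CCAAT, 16 of 22 among genes above and 4 of 4 among genes that overlapped. The shares describe these gene lists and not the members, since nearly all of the first list was above and the overlapping mitosis genes held CCAAT as well. MCM3, a helicase subunit, measured 72.9, 70.0 and 68.6 FPKM against 18.2 to 40.4, and PCNA, the polymerase clamp, 104, 116 and 115 against 44.6 to 89.9. The 150 bases before the start of each are given 5′ to 3′ (GRCh38.p14), MCM3 at chr6:52284743-52284892, minus strand and PCNA at chr20:5126623-5126772, minus strand, with GGCGGGAA and CCAAT, or its reverse complement ATTGG, in capitals.
MCM3: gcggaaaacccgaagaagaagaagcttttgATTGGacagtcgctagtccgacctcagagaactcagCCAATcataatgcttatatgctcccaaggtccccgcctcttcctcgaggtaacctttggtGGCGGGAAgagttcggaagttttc
PCNA: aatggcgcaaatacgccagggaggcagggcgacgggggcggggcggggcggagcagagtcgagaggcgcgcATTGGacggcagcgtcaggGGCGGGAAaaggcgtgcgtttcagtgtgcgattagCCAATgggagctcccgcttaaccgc
Each has 1 GGCGGGAA and a CCAAT on each strand.

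Sterol synthesis followed, with 18 of 23 genes above and 1 below (median 1.09), and 17 to 19 above under the 3 other scalings. HMGCS1 (chromosome 5, 43289493 to 43313595), the synthase that makes HMG-CoA, measured 537, 556 and 408 FPKM in FSB, 152, 177 and 135 in F and 173, 199 and 187 in F_FSB, 2.93 times higher. The 6 values without the inhibitor all lay under the lowest FSB value by a wide margin. ACAT2, the thiolase that starts the pathway, measured 263, 312 and 201 against 76.0 to 100.4. PMVK, phosphomevalonate kinase, was the exception below (11.0, 11.2 and 8.70 against 12.9 to 15.9). Lysosomal genes lay on the other side, 13 below and 2 above of 23 (median -0.67; 11 to 15 below under the other scalings). The hydrolases GAA (5.06, 4.39 and 7.47 against 14.6 to 19.8), HEXA (20.8, 23.1 and 32.4 against 53.5 to 62.2) and CTSA (21.5, 21.8 and 26.8 against 56.7 to 96.2) and the membrane protein LAMP1 (83.6, 90.9 and 94.5 against 135 to 180.2) were below, and NPC1, which exports cholesterol from lysosomes, was above (13.3, 14 and 9.63 against 5.17 to 6.46). Of 28 genes of respiratory complex I 8 were above and 1 below, and after scaling by median ratios or quantiles 3 above and 4 below. Over all tested genes 30.6% were above and 14.8% below with the deposited values.

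Interferon response and antigen presentation genes were below in 16 of 25 tested and above in 0 (median -0.78), and 12 to 17 were below under the other scalings. With the deposited values 14.8% of all tested genes were below and 30.6% above. Besides IFI44, IFI44L measured 0, 0.00809 and 0.0329 FPKM in FSB and 2.45 to 7.01 in the others. The signalling subunits STAT2 (15.7, 14.3 and 19.2 against 21.4 to 25.9) and IRF9 (6.30, 5.51 and 6.24 against 11.7 to 14.2) were both below. PSMB8, an immunoproteasome subunit, measured 0.868, 0.865 and 5.17 against 9.17 to 18.0, TAP1, a peptide transporter, 0.552, 0.735 and 1.38 against 2.71 to 5.21 and HLA-B 14.7, 16.3 and 9.06 against 27.8 to 77.4. FSB replicate 3 was the highest FSB library for PSMB8 and TAP1 and the lowest for HLA-B. IFIT1 (4.33, 4.47 and 15 against 4.44 to 18.7), ISG15 (13.9, 15.8 and 20.8 against 12.9 to 25) and B2M (189.9, 250.3 and 277 against 224 to 617) overlapped.

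The genes of the interferon receptors, singled out after their values were seen, lay below in a row. On chromosome 21 (GRCh37), 5 consecutive tested genes from 34602231 to 34852316, IFNAR2, IL10RB, IFNAR1, IFNGR2 and TMEM50B, were all below within 250.1 kb. IFNAR2 measured 3.96, 5.46 and 4.35 FPKM against 7.43 to 9.45, IFNAR1 8.78, 10.8 and 9.47 against 12.4 to 16.4, IFNGR2 29.0, 29.5 and 24.7 against 40.9 to 54.1 and IL10RB, the shared receptor chain for interleukin 10, 5.36, 6.15 and 7.20 against 11.7 to 17.7. IFNGR1, the other chain of the interferon γ receptor, lies on chromosome 6 and overlapped (12.1, 15 and 14 against 11.0 to 14.8), and the kinases JAK1 and TYK2 overlapped as well, JAK1 by a small margin and below after scaling by median ratios or quantiles. In the major histocompatibility region of chromosome 6, TAP2, PSMB8, TAP1 and PSMB9, 4 consecutive genes from 32789610 to 32827628, were also all below. TAP2 was below by a gap of 0.09 (3.39, 4.16 and 3.40 against 4.49 to 6.24) and was not a member after scaling to the same sum. When Cufflinks' intervals had to stay apart, TAP2, IFNAR1 and IFNAR2 were not members.

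Promoters of these genes were searched for the interferon-stimulated response element, GAAA followed after any 2 bases by another GAAA, on both strands. It was found in 12 of 20 promoters of the list, against 3.65% of all promoters of the same 300 bases. The 12 were not only below members: 6 of 12 promoters of genes below and 6 of 8 of genes that overlapped held it. The 150 bases before the start of 4 below members are shown (GRCh38.p14), IFI44 at chr1:78649639-78649788, plus strand, IFI6 at chr1:27672193-27672342, minus strand, IFIT3 at chr10:89327847-89327996, plus strand and TAP1 at chr6:32853705-32853854, minus strand, with the element, or its reverse complement, in capitals.
IFI44: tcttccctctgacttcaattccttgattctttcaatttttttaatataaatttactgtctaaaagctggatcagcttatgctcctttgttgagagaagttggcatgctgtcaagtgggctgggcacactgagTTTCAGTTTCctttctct
IFI6: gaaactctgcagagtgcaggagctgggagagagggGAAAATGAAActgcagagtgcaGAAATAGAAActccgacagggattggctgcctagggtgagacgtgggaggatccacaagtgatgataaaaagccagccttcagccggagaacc
IFIT3: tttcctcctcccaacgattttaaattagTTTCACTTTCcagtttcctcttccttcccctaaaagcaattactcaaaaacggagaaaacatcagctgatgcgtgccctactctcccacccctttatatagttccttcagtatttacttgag
TAP1: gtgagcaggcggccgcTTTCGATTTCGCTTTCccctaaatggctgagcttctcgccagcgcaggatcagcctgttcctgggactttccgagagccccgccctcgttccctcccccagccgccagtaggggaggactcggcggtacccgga
IFI44 and IFIT3 have 1 match and IFI6 and TAP1 2, which overlap in TAP1. IFI6 measured 7.94, 9.42 and 13.4 FPKM against 16.2 to 26.6 and IFIT3 1.92, 2.32 and 3.16 against 4.30 to 5.68, differences of -1.06 and -0.78 on the log2 scale. IFI44, also with 1 match, was listed at 0 in FSB.

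**Figure D4:**
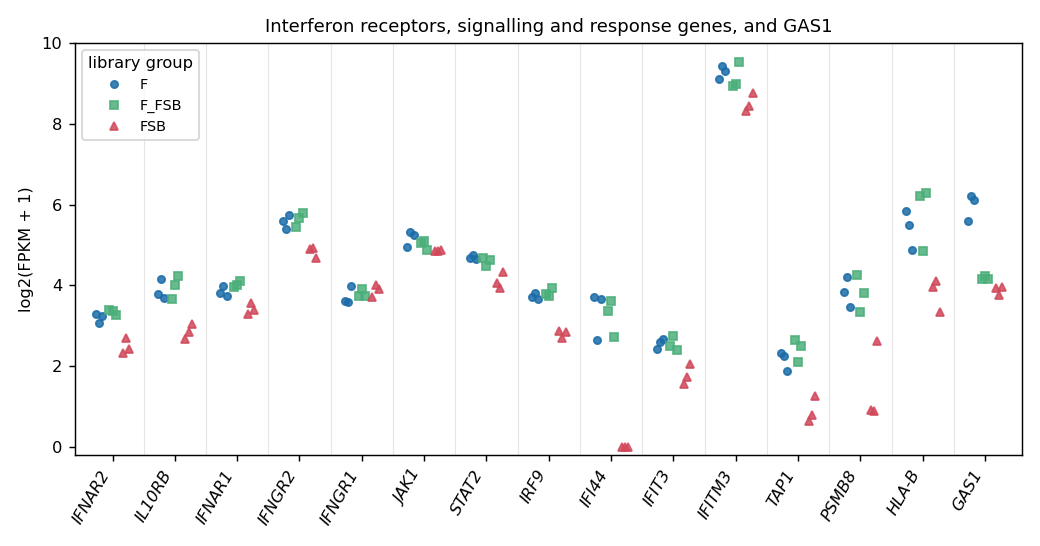
Interferon receptor, signalling and response genes and GAS1, each library as log2(FPKM + 1); circles are F, squares F_FSB and triangles FSB. FSB is below the 6 others for every gene shown except IFNGR1 and JAK1. The response genes shown are a selection in which all are below members. Of 25 tested genes of the list 16 were below and 9 overlapped. IFIT1, ISG15 and B2M, which overlapped, are not shown, nor is the kinase TYK2. For GAS1 the F_FSB libraries lie near FSB and the F libraries above both.

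Gene families outside the lists, chosen after their counts were seen, are given as counts, to be read against 30.6% above and 14.8% below over all tested genes. Of 19 nucleoporin genes 18 were above and 0 below (16 above after scaling by median ratios), and NUP35 overlapped. NUP210, a nuclear pore membrane protein, measured 5.92, 4.98 and 5.27 FPKM against 0.0391 to 0.892. SR splicing factors had 11 above and 0 below of 12 (9 above under each other scaling), DEAD-box helicases 23 above and 0 below of 36, but 11 above and 1 below after median-ratio scaling, and mitochondrial ribosomal proteins 37 above and 3 below of 78 (25 and 6 after that scaling). Of 443 ZNF genes 142 were above (32.1%, near the share of all genes) and 27 below (6.09%), turning to 95 and 63 after that scaling. Beta protocadherins had 9 below and 0 above of 16, and Frizzled receptors 5 below and 2 above of 8 (5 and 1 under each other scaling). Cytosolic ribosomal proteins were mostly in neither class, 2 above and 2 below of 106, with 18 below after median-ratio scaling.

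Members of the same direction were neighbours a little more often than pairs of all tested genes. Over 8040 pairs of consecutive tested genes at most 100 kb apart, the next gene was above after 36.5% of genes above, where 32.3% of all next genes were, and below after 21.1% of genes below, where 14.8% of all were. The longest run held 9 genes above, from RTN2 to FBXO46 on chromosome 19. CYP1A1 and ARID3B lay in a run of 7 genes above on chromosome 15, UBL7, ARID3B, CLK3, EDC3, CYP1A1, CSK and ULK3, from 74738318 to 75135552. Genes below formed a run of 6 on chromosome 11, IFITM10, CTSD, SYT8, TNNI2, LSP1 and TNNT3, from 1753640 to 1959936. Overlapping genes were left out of the pairs, and no source used here states whether quantification used the strand, so reads of close neighbours may not be fully separate.

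**Figure D5:**
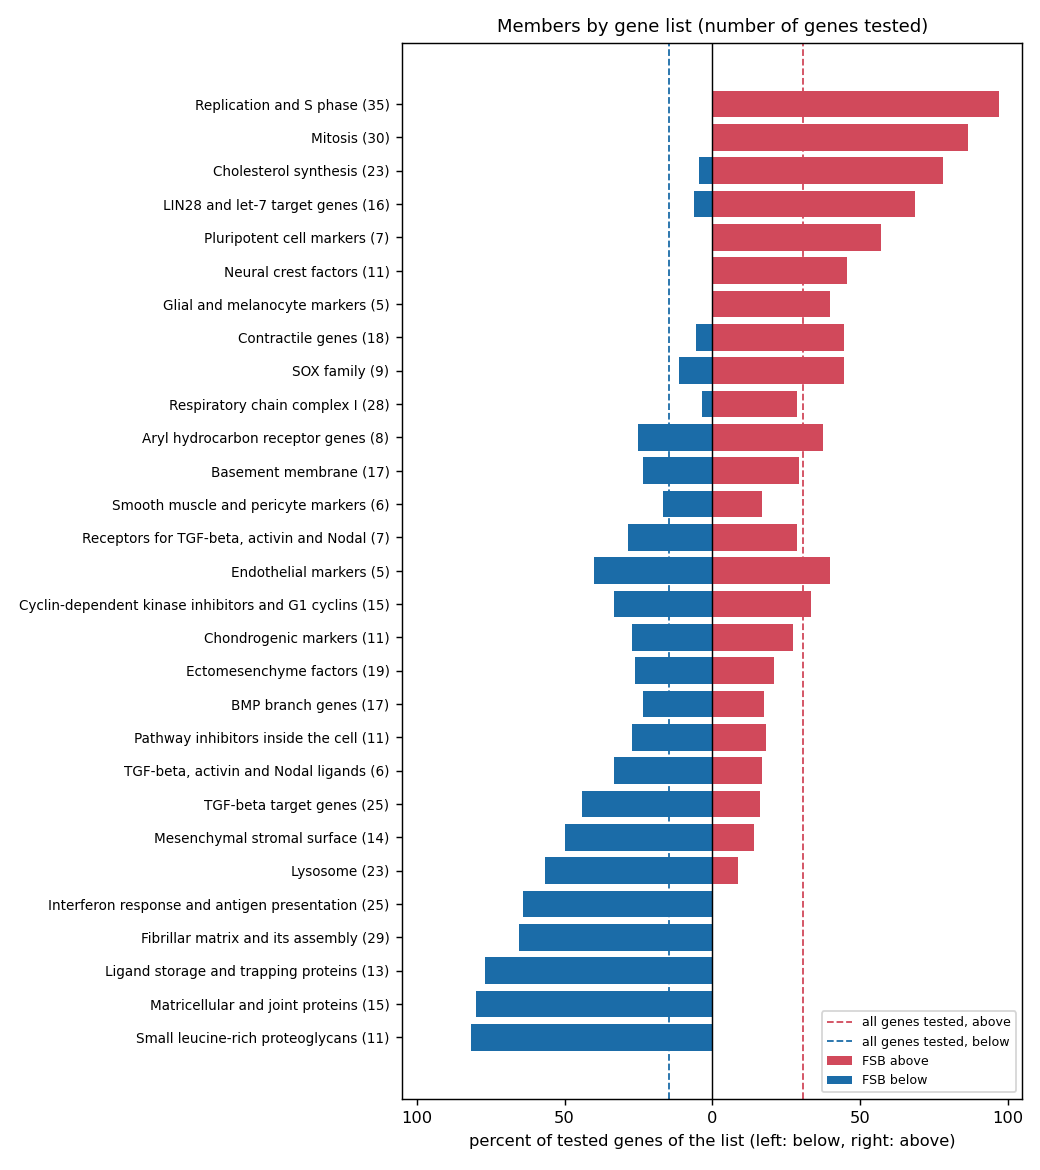
Percent of the tested genes of each list that were below (left, blue) or above (right, red) the 6 other libraries, for lists with 5 or more genes tested (number in brackets); dashed lines give the shares over all tested genes, 30.6% above and 14.8% below. Replication, mitosis and cholesterol synthesis stand at the top, and the 3 matrix lists, the ligand storage list and the interferon list, all with 0 above, at the bottom.

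The 6 libraries without the inhibitor at harvest hold a second comparison: F_FSB, which had the inhibitor for 4 passages of expansion, against F, which did not. The rule did not use this contrast, but it set FSB against the same 6 values, so a gene with a wide spread among them was less likely to be a member. Shares over members are therefore a description. With limma on all 9 libraries and Benjamini-Hochberg (BH) adjustment over 13216 genes, 1 gene (0.00757%) passed the 0.05 threshold, lower in F_FSB, and none passed higher. At an unadjusted p under 0.05 there were 1195 genes (9.04%), with 262 of the 4042 above members (6.48%) and 236 of the 1950 below members (12.1%) among them. The 3 F_FSB libraries lay above all 3 F libraries for 5.00% of the above members and 6.10% of the below members, where 6.28% of all tested genes did, and below them for 6.61% and 7.44%, where 6.76% did. The count of calls rested on single libraries: it was 77 without F replicate 1, 4 without F replicate 2, 2 without F_FSB replicate 3 and 0 without F replicate 3, FSB replicate 1, FSB replicate 2 or F_FSB replicate 2. The median difference of F_FSB minus F was -0.020 over the above and 0.0019 over the below members.

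For members expressed in all 6 libraries the comparison can be read gene by gene. In limma the log2 difference was 0.24 for SPARCL1 (SE 0.47, BH-adjusted p = 0.879) and 0.059 for COL1A1 (SE 0.19, BH-adjusted p = 0.931), neither detectable beyond its error, and over the alternatives they ranged from -0.24 to 0.72 and from -0.086 to 0.16. Both thus changed sign. NGFR differed by -1.09 with an SE of 1.05 (limma, BH-adjusted p = 0.742) and F libraries from 0.725 to 41.3 FPKM. The 3 tested HOX genes, which are not members, were lower in all 3 F_FSB libraries than in all 3 F libraries, with log2 differences of -2.73 for HOXA3, -1.70 for HOXA2 and -1.67 for HOXB2, but none passed (limma, BH-adjusted p = 0.344, 0.513 and 0.307). Without F replicate 1 HOXB2 passed (limma, BH-adjusted p = 0.0344).

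The gene that passed was GAS1 (chromosome 9, 89559277 to 89562104, GRCh37), a cell surface protein that binds hedgehog ligands and was named for its expression in growth-arrested cells. It is a below member, with a gap of 0.18. GAS1 measured 47.2, 73.1 and 68.6 FPKM in F, 16.8, 17.6 and 16.7 in F_FSB and 14.3, 12.6 and 14.7 in FSB. The F_FSB libraries therefore lay just over the FSB libraries and far under the F libraries. The difference of F_FSB from F was -1.80 on the log2 scale (SE 0.15, limma, BH-adjusted p = 0.0296), from means of 63.0 ± 13.9 to 17.0 ± 0.525 FPKM (SD, n = 3), lower in 3 of 3 libraries. The call was fragile: without F replicate 3 the adjusted p was 0.246, without FSB replicates 1, 2 and 3 it was 0.147, 0.115 and 0.0664, and without F_FSB replicates 1, 2 and 3 it was 0.112, 0.105 and 0.0530, while the difference stayed between -1.99 and -1.68. Over all alternatives the adjusted p ranged from 0.000561 to 0.337. After scaling to the same sum GAS1 was no longer a below member.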

How the data were processed

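Total RNA of 9 cultures was made into libraries with a strand-specific kit, per the labels' protocols. The tools listed in the submitters' processing notes, without their roles, are TopHat2 2.0.12 and Cufflinks 2.1.1, and the build is GRCh37. The values are FPKM per gene as the authors deposited them, with Cufflinks' own interval and status. No source used here gives the annotation, the options or the use of the strand. The tables hold no fragment counts, so precision is known only from those intervals.

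Groups came from the sample titles. Values were taken as log2(FPKM + 1). Genes with 1 FPKM or more in at least 3 libraries and an accepted status in all 9 were kept. Of 25593 loci, 95 lacked that status and 12282 were too low, which left 13216. A gene was a member when its 3 FSB values lay all above or all below the 6 others. Folds are ratios of mean FPKM, and other differences use log2(FPKM + 1), where changes of low genes come out too small. F_FSB was compared with F by limma 3.58.1 (R 4.3.3) with a trended variance over all 9 libraries, with Benjamini-Hochberg adjustment over all tested genes. Tables were made with Python 3.11.15, pandas 2.3.3 and numpy 2.4.6 and figures with matplotlib 3.10.9. The scripts were tested on simulated data.

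The members and the 37 gene lists were chosen with earlier results of these data known, and the families and a few further genes after their values were seen. Named are the 15 genes with the widest gap in each direction, the genes that were on or off, up to 4 members of each list and direction by gap, the pathway genes that passed the filter, and 3 genes on each side of each border. Symbols of predicted, microRNA, small nucleolar and ribosomal protein genes, symbols at more than 1 locus and genes known to be spliced under 300 bases were left out. Some genes that this rule takes are not reported here. Promoters came from the RefSeq table (GRCh38.p14), which held 10042 of 13169 tested symbols (76.3%). That is too few for a comparison of motifs over all members, which is void, so motifs are given for short lists only. The p-values measure the spread between cultures of 1 cell line. Alternatives were other filters, 3 scalings, a wider gap, Cufflinks' intervals, each library left out and a replicate block.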

Additional observations from a re-analysis of the deposited data

Results flagged for a closer look

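The 6 libraries without the inhibitor were searched for single values far from the other 5 in 50 genes with the widest gaps or on and off status, by Dixon's test at the 95% level. Chance gives such a value in about 1 of 20 groups, and 4 genes had one. BMP7 stood at 0.296 FPKM in F_FSB replicate 2, where the other 5 libraries were near 0. NPPB was at 0.0921 FPKM in F_FSB replicate 3 and listed at 0 in the other 5. YPLR6490, the locus before TRIM71, measured 0.319 FPKM in F_FSB replicate 1, the highest of the 6. These 3 are on genes, whose values in the 6 libraries are low by definition. TMEFF2, an off gene for a membrane protein with follistatin-like domains, measured 38.3 FPKM in F replicate 2, above the other 5 libraries, which moves it away from FSB.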

How the results depend on the processing

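Scaling decided how the members divided by direction: 67.5% were above with the deposited values, 49.1% with median ratios (78.1% of members kept), 53.6% with quantiles (81.8% kept) and 73.0% with equal sums (84.6% kept). Requiring a gap of 1 left 490 members, 258 above and 232 below. Requiring Cufflinks' intervals not to overlap left 2879, 1939 above and 940 below. At 10 FPKM and 1 FPKM there were 10 on and 7 off genes. Leaving out 1 library, with the filter of all 9 kept, can only add members under the rule. It gave 4143 to 4544 above and 2020 to 2584 below. For F_FSB against F, limma called 0 genes with no filter on FPKM, 0 with a replicate block and 0 to 77 with 1 library left out; with the 6 libraries alone it called 1, which was not GAS1. Same-numbered libraries of F and F_FSB correlated at 0.29, -0.03 and 0.10 in their deviations, and differently numbered ones at -0.23 to 0.13. These few values do not settle whether the numbers pair the samples. The labels do not say so either, and the block was used only here. The cause of these shifts was not tested. For members taken by the naming rule, no difference between FSB and the 6 others changed sign after any of the scalings. The other alternatives could not test this. The rule puts all FSB values of a member on 1 side, so leaving out a library or changing the filter cannot reverse the sign. Sign changes were not searched for in named genes that are not members. The differences of F_FSB from F in COL1A1 and SPARCL1 did change sign (-0.086 to 0.16 and -0.24 to 0.72). Members with a narrow gap depend on single libraries, and low FPKM values cannot be told from 0 without fragment counts.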
